A study of Rattus norvegicus with 23 samples.

Results

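The collagen genes are the rat genes whose symbol names a collagen alpha chain, *Col* followed by a type number, the letter a and a chain number. They were found by matching the accession of each array probe to a RefSeq symbol, a rule that uses symbols and no measured values. Of 16544 genes with a symbol on the array, 23 were collagen genes, carried by 31 probes: 8 fibrillar chains (*Col1a1*, *Col1a2*, *Col2a1*, *Col3a1*, *Col5a1*, *Col5a3*, *Col11a1* and *Col11a2*), 2 basement membrane chains (*Col4a1* and *Col4a4*) and 13 others (*Col6a2*, *Col6a5*, *Col7a1*, *Col8a1*, *Col9a1*, *Col9a2*, *Col13a1*, *Col14a1*, *Col15a1*, *Col16a1*, *Col18a1*, *Col23a1* and *Col26a1*). The other 21 collagen symbols of the RefSeq annotation, among them *Col4a2*, *Col5a2*, *Col6a1* and *Col6a3*, had no matched probe and were not analysed here.

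The tissues came from 12 untreated male Wistar rats aged 8 to 11 weeks. Total RNA from 6 cardiopulmonary regions was hybridized to 23 single-colour Agilent arrays: left atrium beside the pulmonary vein (LA, n = 4), left ventricle (LV, n = 4), right ventricular free wall (RV, n = 3), sinoatrial node region (SA, n = 4), pulmonary vein (PV, n = 4) and pulmonary artery (PA, n = 4). Each SA sample pooled tissue from 2 rats, and SA was isolated separately. Each LV mass was cut into 3 pieces, so LV samples may share an animal. The other tissues were cut one by one from a heart-lung block, so samples of different regions may share an animal too. The tests treated all samples as independent. The labels number the samples within a region but do not say which animal gave each, and p-values therefore measure the spread between these samples. The tissues were dissected without sorting, and in such bulk samples fewer cells of a type and less RNA per cell cannot be told apart.

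Collagens are secreted triple helices made of 3 alpha chains. Types I, III, V and XI assemble into the fibrils that give heart and vessel walls their tensile strength, with type V and XI chains inside the fibril, where they set its diameter. Type IV forms the sheet of the basement membrane around each cardiomyocyte and smooth muscle cell and under the endothelium, and the remaining types decorate fibrils, form beaded filaments or short networks, cross the plasma membrane, or carry glycosaminoglycan chains in basement membrane zones. In the heart, fibroblasts are the main source of fibrillar collagen, and in arteries smooth muscle cells and adventitial fibroblasts make it.

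Promoters are printed for 6 collagen genes that moved in different directions between regions. *Col1a2* and *Col5a1* are fibrillar chains with their highest mean in PA, and *Col5a3* is one with its lowest mean there. *Col11a2* is a fibrillar chain that was lower in PA than in LA, SA and PV but not than in LV or RV. *Col4a1* is of the basement membrane, and *Col18a1* had the largest difference of the 23 genes. Each window runs 5′ to 3′ on the gene's strand from 250 bases before to 50 bases after the annotated start, from RefSeq on build GRCr8. The windows lie at chr4:33518307-33518606 on the plus strand (*Col1a2*), chr3:31606630-31606929 on the plus strand (*Col5a1*), chr8:27625899-27626198 on the minus strand (*Col5a3*), chr20:4817599-4817898 on the minus strand (*Col11a2*), chr16:84885347-84885646 on the plus strand (*Col4a1*) and chr20:11473395-11473694 on the plus strand (*Col18a1*). Capitals mark matches on either strand. The GC box was searched as the letters GGGCGG, and its matches can share bases with a CCAAT match on the other strand. The second motif was the pentamer CCAAT, often found upstream of starts. The third, the usual TATA box, was searched as TATAAA.
*Col1a2*: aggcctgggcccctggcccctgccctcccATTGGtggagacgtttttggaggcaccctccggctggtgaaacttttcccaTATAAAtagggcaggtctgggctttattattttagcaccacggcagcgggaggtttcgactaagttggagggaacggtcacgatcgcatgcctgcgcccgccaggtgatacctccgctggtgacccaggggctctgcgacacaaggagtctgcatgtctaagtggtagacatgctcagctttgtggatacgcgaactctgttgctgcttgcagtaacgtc
*Col5a1*: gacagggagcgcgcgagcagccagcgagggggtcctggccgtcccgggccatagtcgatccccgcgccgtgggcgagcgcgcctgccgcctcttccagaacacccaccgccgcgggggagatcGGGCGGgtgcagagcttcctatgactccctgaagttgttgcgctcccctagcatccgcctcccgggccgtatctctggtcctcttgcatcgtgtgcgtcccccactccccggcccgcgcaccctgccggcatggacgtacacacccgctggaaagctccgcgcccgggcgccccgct
*Col5a3*: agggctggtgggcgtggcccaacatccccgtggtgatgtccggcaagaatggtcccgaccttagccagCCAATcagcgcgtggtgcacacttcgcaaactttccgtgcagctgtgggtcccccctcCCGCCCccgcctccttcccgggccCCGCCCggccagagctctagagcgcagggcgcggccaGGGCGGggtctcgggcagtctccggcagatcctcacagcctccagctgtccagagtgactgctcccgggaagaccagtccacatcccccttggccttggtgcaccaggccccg
*Col11a2*: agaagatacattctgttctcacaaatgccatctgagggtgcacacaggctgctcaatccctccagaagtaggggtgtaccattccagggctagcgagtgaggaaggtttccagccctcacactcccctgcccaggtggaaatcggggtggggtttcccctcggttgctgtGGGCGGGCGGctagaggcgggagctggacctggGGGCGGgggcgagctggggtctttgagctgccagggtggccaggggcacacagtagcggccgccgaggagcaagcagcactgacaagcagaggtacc
*Col4a1*: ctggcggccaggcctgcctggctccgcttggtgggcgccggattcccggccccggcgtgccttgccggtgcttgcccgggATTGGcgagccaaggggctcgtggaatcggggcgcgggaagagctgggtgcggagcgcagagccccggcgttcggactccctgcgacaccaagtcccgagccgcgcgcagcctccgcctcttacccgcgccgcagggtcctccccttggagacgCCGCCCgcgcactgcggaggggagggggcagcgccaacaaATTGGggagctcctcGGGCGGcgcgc
*Col18a1*: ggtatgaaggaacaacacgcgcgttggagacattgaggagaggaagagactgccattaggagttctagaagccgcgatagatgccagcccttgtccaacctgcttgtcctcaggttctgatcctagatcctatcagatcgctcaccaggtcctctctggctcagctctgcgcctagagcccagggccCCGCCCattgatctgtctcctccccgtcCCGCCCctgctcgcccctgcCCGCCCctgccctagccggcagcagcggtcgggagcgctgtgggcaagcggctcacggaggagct
Of these 6 windows, only that of *Col1a2* held the TATA box letters, and only it held no GC box. Its TATA letters lay at −170 from the annotated start and its CCAAT letters at −221. In *Col4a1*, a CCAAT match at 25 and a GC box at 40 lay after the start. Whether any match acts at these starts was not tested. RefSeq promoters were given for 18 of the 23 genes. A GC box was present in 10 of the 18, against 33.1% of all 33469 rat promoters. The CCAAT letters were in 5 of the 18, against 37.5% of all promoters, and the TATA letters in 2, against 14.2%. Overlapping GC boxes were counted as separate matches and a promoter was counted once per motif.

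Each value below is log2 of the deposited normalized signal plus 1, taken from the brightest probe of a gene on each array, so 1 unit is a 2-fold change. Between 58.6% and 79.8% of probes were well above background per array, with 72.6% to 79.8% on arrays of the first row of a slide and 58.6% to 69.3% on the second row. No spot was saturated. Marker genes followed the tissue labels. The ventricular light chain *Myl2* was at 19.10 ± 0.14 (SD, n = 4) in LV and 14.37 ± 0.75 (n = 4) in LA, the atrial light chain *Myl7* was at 18.83 ± 0.14 (n = 4) in LA and 15.73 ± 0.80 (n = 4) in LV, and the smooth muscle myosin *Myh11* was at 17.50 ± 0.22 (n = 4) in PA and 10.72 ± 0.17 (n = 4) in LA. Of the 23 collagen genes, 17 were well above background on every array, and *Col13a1* was on 22 of the 23. The other 5 were dim: *Col7a1* passed on 20 arrays, *Col9a1* on 17, *Col6a5* on 16, *Col23a1* on 12 and *Col11a1* on 7.

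The first comparison asked which collagen genes differed between the 6 regions. In limma's moderated F test, 19 of the 23 passed an adjusted p of 0.05, 82.6% of them, against 64.4% of the 16089 genes tested. They comprised 7 of 8 fibrillar chains, both basement membrane chains and 10 of 13 others. The 4 that did not pass were *Col2a1*, the cartilage fibril chain (adjusted p = 0.714), *Col9a2* of the fibril-associated type IX (adjusted p = 0.11), *Col6a5* (adjusted p = 0.276) and the membrane-spanning *Col23a1* (adjusted p = 0.608). PA had the highest mean for 12 of the 19 that passed, LA for 3 (*Col11a2*, *Col4a4* and *Col13a1*), RV for 3 (*Col5a3*, *Col9a1* and *Col26a1*) and PV for 1 (*Col7a1*).

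**Figure D1:**
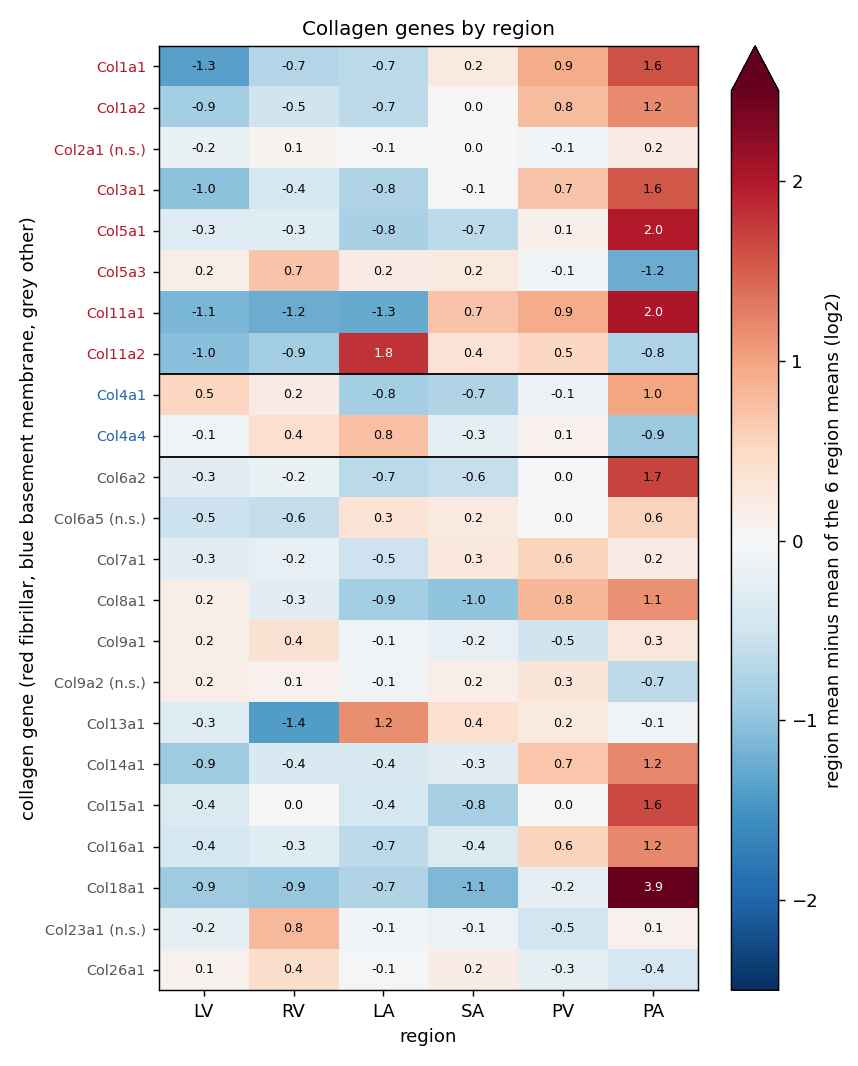
Mean log2 normalized signal of each collagen gene (rows) in each region (columns) minus the mean of its 6 region means, printed in the cells and coloured from blue (lower) to red (higher), with genes that missed an adjusted p of 0.05 in limma's 6-region test marked n.s. PA is the reddest column, *Col18a1* reaches past the colour scale there, and *Col11a2*, *Col4a4* and *Col13a1* have their highest mean in LA.

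Type I collagen, the main fibril of heart and vessel walls, was lowest in LV and highest in PA for both of its chains. The log2 normalized signal of *Col1a1* was 14.1, 14.35, 14.25 and 14.62 in LV, 14.82, 15.1 and 14.92 in RV, and 15.12, 15.33, 14.98 and 14.55 in LA. It was 15.4, 16.07, 15.85 and 16.36 in SA, 16.65, 16.17, 16.65 and 16.95 in PV, and 17.15, 17.43, 17.26 and 17.28 in PA. The LA arrays overlapped both LV and RV at the bottom while LV lay wholly below RV, all SA arrays lay above these 3 regions, and array SA4 reached the PV range. The test over 6 regions gave an adjusted p of 3.87e-10 (limma). Both probes of *Col1a1* had the same lowest and highest regions, LV and PA, but one was the brighter on all 4 PA arrays and 1 LV array and the other on the remaining arrays. With the first of these probes the lowest PA array (17.15) lay above every other array (up to 16.62), and with the second PA (from 16.77) overlapped array PV4 (16.95). For the second chain, the level of *Col1a2* was 15.21, 15.46, 15.62 and 15.79 in LV, 15.81, 15.98 and 15.84 in RV, and 16.12, 15.74, 15.63 and 15.42 in LA. It was 15.83, 16.54, 16.27 and 17.01 in SA, 17.05, 16.92, 17.25 and 17.49 in PV, and 17.37, 17.49, 17.69 and 17.69 in PA. Array PV4 at 17.49 reached the PA range, LA overlapped both ventricles, and LV lay just below RV (adjusted p = 6.14e-08, limma).

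*Col3a1*, the thinner fibril chain that is laid down with type I in distensible tissue, kept the same order of the upper regions, PA, PV and then SA. The level of *Col3a1* was 15.01, 15.04, 15.29 and 15.4 in LV, 15.55, 15.94 and 15.82 in RV, and 15.64, 15.59, 15.36 and 15.19 in LA. It was 15.54, 16.31, 16.1 and 16.64 in SA, 16.78, 16.45, 17.2 and 17.22 in PV, and 17.81, 18.02, 17.44 and 17.78 in PA. All PA arrays lay above all others, and 3 of 4 SA arrays lay above every array of LV, RV and LA (adjusted p = 8.01e-09, limma).

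*Col5a1*, a chain that nucleates fibrils, stood apart in PA alone. The level of *Col5a1* was 12.3, 12.52, 12.63 and 12.43 in LV, 12.36, 12.67 and 12.47 in RV, and 12.37, 12.22, 11.76 and 11.61 in LA. It was 11.6, 12.36, 11.99 and 12.61 in SA, 12.8, 12.5, 13.09 and 13.29 in PV, and 14.82, 15.03, 14.56 and 14.68 in PA. The lowest PA array was 1.28 above the highest array of any other region, and the other 5 regions lay within 1.69 of each other (adjusted p = 3.93e-09, limma). *Col5a3*, another chain of type V, ran the other way. The level of *Col5a3* was 10.8, 12.58, 11.57 and 10.45 in LV, 12.38, 12.37 and 11 in RV, and 10.79, 11.83, 11.81 and 11.16 in LA. It was 11.6, 12.09, 10.79 and 11.31 in SA, 11.55, 10.77, 11.05 and 11.11 in PV, and 10, 10.3, 10.01 and 9.56 in PA. Its PA arrays were the 4 lowest of the 23, and the 6-region test gave an adjusted p of 0.00935 (limma) with LV spread over 10.45 to 12.58.

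*Col11a2*, a type XI chain best known from cartilage, was the only fibrillar chain with its highest mean in LA. The level of *Col11a2* was 7.03, 8.18, 8.22 and 7.52 in LV, 7.95, 8.33 and 7.43 in RV, and 10.52, 10.76, 10.58 and 10.48 in LA. It was 9.12, 9.12, 9.22 and 9.06 in SA, 9.61, 9.11, 9.43 and 9.07 in PV, and 7.8, 8, 8.32 and 7.92 in PA. The 4 LA arrays lay above every other array, SA and PV formed a middle level, and LV, RV and PA formed a low one (adjusted p = 4.13e-09, limma). A second probe of *Col11a2* was well above background on 10 arrays and had region means between 4.37 and 5.05, so the pattern rests on 1 probe. *Col11a1*, its partner chain, was dim and had another order. The level of *Col11a1* was 2.61, 3.14, 2.49 and 3.47 in LV, 2.51, 3.46 and 2.51 in RV, and 3.64, 3.39, 2.04 and 2.17 in LA. It was 5.47, 4.96, 3.64 and 5.02 in SA, 4.45, 5.44, 4.38 and 5.69 in PV, and 5.45, 6.79, 5.7 and 6.38 in PA. It was well above background on all 4 PA arrays, 2 PV arrays and 1 SA array, and on no array of LV, RV or LA. PA was at least 3.36-fold higher than LA, at least 2.34-fold higher than LV and at least 2.56-fold higher than RV, setting each dim array at the higher of its own value and the lowest signal well above background on that array.

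**Figure D2:**
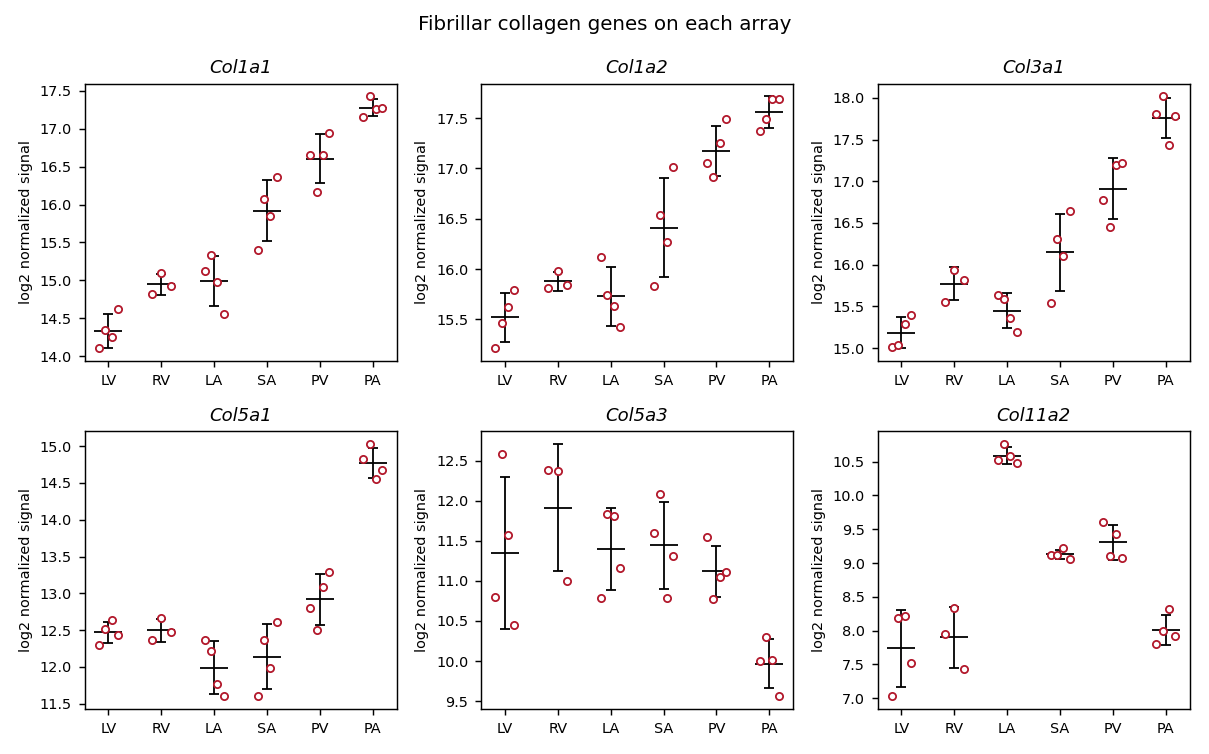
Log2 normalized signal of 6 fibrillar collagen genes on each of the 23 arrays (circles) by region, with the mean (bar) and SD (whiskers) of each region and an axis of its own for each gene. *Col1a1*, *Col1a2*, *Col3a1* and *Col5a1* are highest in PA, *Col5a3* is lowest there, and *Col11a2* is highest in LA.

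The basement membrane chains *Col4a1* and *Col4a4* belong to different type IV networks, the first to the one found in nearly all basement membranes. The level of *Col4a1* was 13.64, 14.11, 14.18 and 13.95 in LV, 13.55, 13.65 and 13.67 in RV, and 12.82, 12.79, 12.24 and 12.47 in LA. It was 12.37, 12.89, 12.53 and 12.91 in SA, 13.4, 13.01, 13.23 and 13.49 in PV, and 14.51, 14.58, 14.29 and 14.28 in PA. PA was highest, LV and RV came next, and LA and SA were lowest, with LV and RV overlapping (adjusted p = 8.99e-09, limma). The level of *Col4a4* was 7.51, 7.07, 7.26 and 7.25 in LV, 7.52, 8.11 and 7.72 in RV, and 8.22, 7.94, 7.99 and 8.42 in LA. It was 7.21, 7.07, 6.79 and 7.44 in SA, 7.09, 7.49, 7.69 and 7.67 in PV, and 6.35, 6.32, 6.93 and 6.3 in PA. Here the order was turned: LA was highest and PA lowest, array RV2 at 8.11 reached the LA range, and array PA3 at 6.93 reached the SA range (adjusted p = 2.73e-06, limma).

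*Col18a1*, the proteoglycan collagen of vessel basement membranes from which endostatin is cut, had the largest difference. The level of *Col18a1* was 9.96, 9.89, 9.84 and 10.13 in LV, 9.69, 10.14 and 9.9 in RV, and 10.35, 10.29, 9.86 and 9.94 in LA. It was 9.7, 9.64, 9.58 and 10.04 in SA, 10.42, 10.4, 10.85 and 10.83 in PV, and 14.88, 15.02, 14.44 and 14.77 in PA. The PA arrays lay between 14.44 and 15.02 and the other 19 arrays between 9.58 and 10.85 (adjusted p = 2.75e-15, limma). *Col15a1*, the related chain of the same family, was also highest in PA. The level of *Col15a1* was 14.27, 14.42, 14.5 and 14.79 in LV, 14.81, 15.03 and 14.76 in RV, and 14.64, 14.35, 14.41 and 14.28 in LA. It was 13.46, 14.31, 14 and 14.41 in SA, 14.81, 14.53, 15.18 and 14.9 in PV, and 16.55, 16.72, 16.28 and 16.5 in PA. All PA arrays were above all others, and array SA1 was the lowest of the 23 (adjusted p = 4.69e-09, limma).

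*Col6a2*, a chain of the beaded microfilament that links cells to the interstitial matrix, was highest on all 4 PA arrays. The level of *Col6a2* was 14.55, 14.94, 14.82 and 14.87 in LV, 14.82, 15.04 and 14.81 in RV, and 14.68, 14.58, 14.32 and 13.94 in LA. It was 14.1, 14.76, 14.2 and 14.83 in SA, 15.08, 14.66, 14.99 and 15.34 in PV, and 16.65, 17.07, 16.53 and 16.71 in PA. The other 5 regions lay between 13.94 and 15.34, and both probes had their lowest mean in LA or SA and their highest in PA (adjusted p = 1.12e-08, limma). The fibril-associated chains *Col16a1* and *Col14a1* were highest in PA and next highest in PV. The level of *Col16a1* was 10.6, 11.07, 11.23 and 10.91 in LV, 10.97, 11.36 and 10.95 in RV, and 11.05, 10.98, 10.56 and 10.39 in LA. It was 10.95, 11, 10.92 and 11.29 in SA, 11.85, 11.67, 12.1 and 12.21 in PV, and 12.64, 12.71, 12.48 and 12.6 in PA. PV and PA did not overlap each other or any other region (adjusted p = 1.78e-08, limma). The level of *Col14a1* was 8.24, 8.16, 8.3 and 8.47 in LV, 8.68, 8.77 and 8.95 in RV, and 9.26, 8.81, 8.78 and 8.3 in LA. It was 8.84, 8.82, 8.82 and 9.19 in SA, 9.66, 9.5, 10.14 and 10.18 in PV, and 10.57, 10.45, 9.97 and 10.48 in PA. Here PA3 at 9.97 fell inside the PV range, and PV lay above all LV, RV, LA and SA arrays (adjusted p = 4.38e-08, limma).

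*Col8a1*, which forms short-chain networks in vessel walls and is made by smooth muscle cells and endothelium, was spread widely within regions. The level of *Col8a1* was 9.18, 9.61, 9.53 and 10.18 in LV, 8.91, 9.74 and 8.99 in RV, and 9.35, 8.45, 7.8 and 8.86 in LA. It was 8.38, 8.42, 8.2 and 8.82 in SA, 9.62, 9.65, 10.85 and 11.1 in PV, and 10.92, 11.02, 9.79 and 10.69 in PA. PV1 and PV2 lay more than 1 unit below PV3 and PV4, and PA, PV and LV overlapped (adjusted p = 0.00013, limma). *Col13a1*, a membrane-spanning collagen of cell adhesion sites, was highest in LA. The level of *Col13a1* was 7.4, 7.45, 5.58 and 7.8 in LV, 6.3, 5.73 and 5.88 in RV, and 7.78, 8.78, 8.85 and 8.67 in LA. It was 8, 7.81, 7.24 and 8 in SA, 8.22, 7.97, 7.44 and 6.83 in PV, and 7.68, 6.85, 7.71 and 6.87 in PA. LA and RV did not overlap, while array LV3 at 5.58 was far below the other LV arrays (adjusted p = 0.00117, limma). The remaining 3 that passed were *Col7a1*, the anchoring fibril chain, with means of 5.27 in LA and 6.36 in PV, *Col9a1* with means of 5.34 in PV and 6.24 in RV, and *Col26a1* with means of 5.91 in PA and 6.77 in RV. *Col26a1* lost its call without RV2 and in 7 other alternatives of 38.

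**Figure D3:**
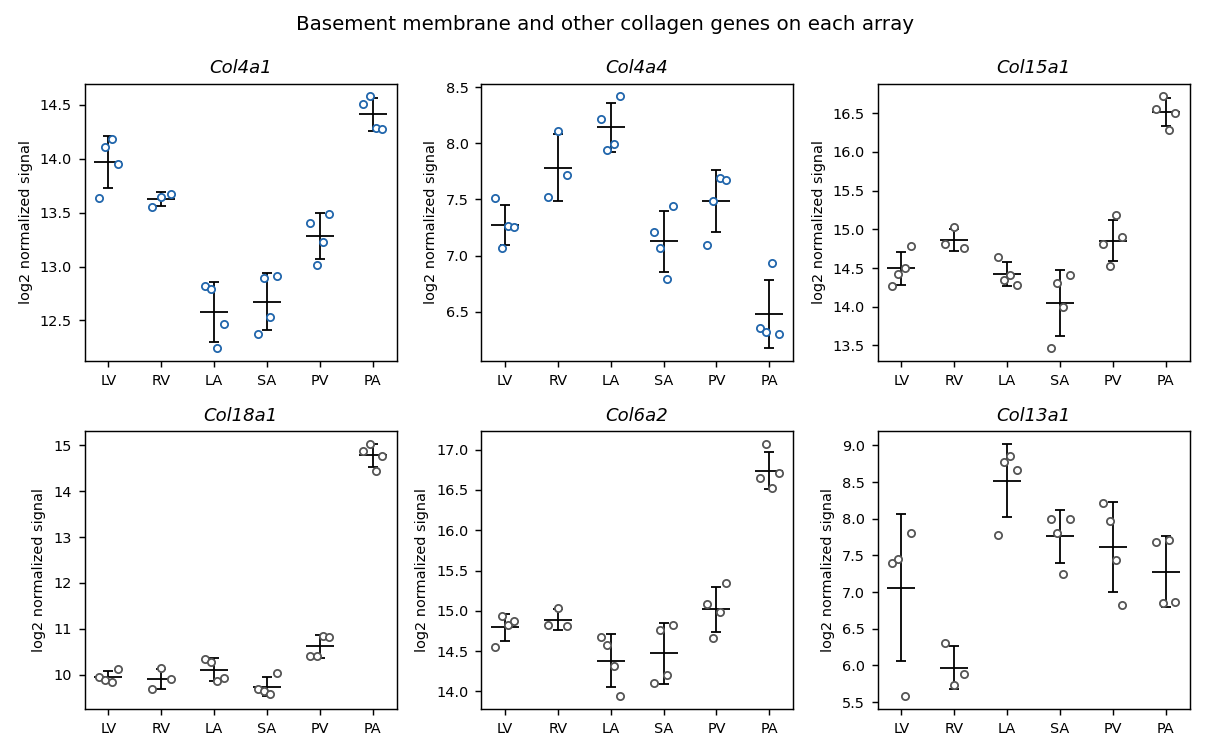
Log2 normalized signal of the basement membrane chains *Col4a1* and *Col4a4* (blue) and of *Col15a1*, *Col18a1*, *Col6a2* and *Col13a1* (grey) on each of the 23 arrays (circles) by region, with the mean (bar) and SD (whiskers) and an axis of its own for each gene. The 4 PA arrays of *Col18a1* lie between 14.44 and 15.02, above the other 19.

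The pulmonary artery was then compared with the mean over LA, LV, RV, SA and PV. In limma's contrast 17 of the 23 collagen genes passed, where 59.1% of all genes did. Of these, 12 were higher in PA and 5 were lower, against 31.4% of genes higher and 27.7% lower among the 16089 tested. The median difference was 1.19 for the collagen genes and 0.05 for all genes. *Col18a1* was 26.2-fold higher (difference 4.71, SE 0.12, adjusted p = 2.89e-17). *Col5a1* was 5.17-fold higher (difference 2.37, SE 0.16, adjusted p = 1e-10 in limma). *Col11a1* had a fitted difference of 2.41 (SE 0.35, adjusted p = 5.8e-06 in limma) that falls to 1.12 when arrays below background are set at their lowest measured signal. The other 9 that rose were *Col6a2* (2.03), *Col15a1* (1.98), *Col1a1* (1.92), *Col3a1* (1.87), *Col16a1* (1.45), *Col14a1* (1.43), *Col1a2* (1.42), *Col8a1* (1.36) and *Col4a1* (1.19). The value for *Col1a1* sets different probes against each other, and within a probe it was 1.76 or 2.40. Those that fell were *Col5a3* (−1.48), *Col4a4* (−1.09), *Col11a2* (−0.92), *Col9a2* (−0.80) and *Col26a1* (−0.52). In this contrast, chains of the same type moved in opposite directions in types V, XI and IV. Both type I chains rose. *Col11a2* in PA (mean 8.01) was lower than in LA, SA and PV but not than in LV (7.74) or RV (7.90). The second, dimmer probe of *Col11a2* gave 0.32.

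Against PV alone, 15 collagen genes passed, where 55.3% of genes did. Of these, 11 were higher in PA and 4 were lower, where 30.7% of 15589 genes were higher and 24.5% lower. The median was 0.56 for the collagen genes and 0.15 for all genes. *Col18a1* was 17.8-fold higher in PA (difference 4.15, SE 0.15, adjusted p = 1.98e-14, limma). *Col5a1* differed by 1.85 (SE 0.21, adjusted p = 2.47e-07, limma) and *Col6a2* by 1.73 (SE 0.19, adjusted p = 1.74e-07, limma). Type I and III genes were also higher. *Col3a1* differed by 0.85, and *Col1a1* by 0.51 with one probe and 1.05 with the other, where the brightest probe was not the same in PA and PV (fitted difference 0.67). *Col15a1* (1.66), *Col4a1* (1.13), *Col16a1* (0.65) and *Col14a1* (0.50) were higher too, the last called in 30 of 38 alternatives. *Col1a2* did not pass (difference 0.38, 95% confidence interval −0.04 to 0.81). The 4 that were lower in PA were *Col11a2* (−1.29), *Col5a3* (−1.15), *Col4a4* (−1.01) and *Col9a2* (−0.96). Of the dim genes, *Col11a1* (1.09) was called in 20 of 38 alternatives and *Col9a1* (0.79) in 38, each with 2 of 4 PV arrays well above background, so these differences are imprecise. Within a probe, *Col9a1* differed by 0.61 or 2.53, and its probes differed in order: the one well above background on 4 arrays had a mean of 5.55 in PA and of 2.45 to 4.04 in the other regions, and the other probe had its highest mean in RV. The comparisons with PV and with the mean of 5 regions share the PA and PV arrays.

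**Figure D4:**
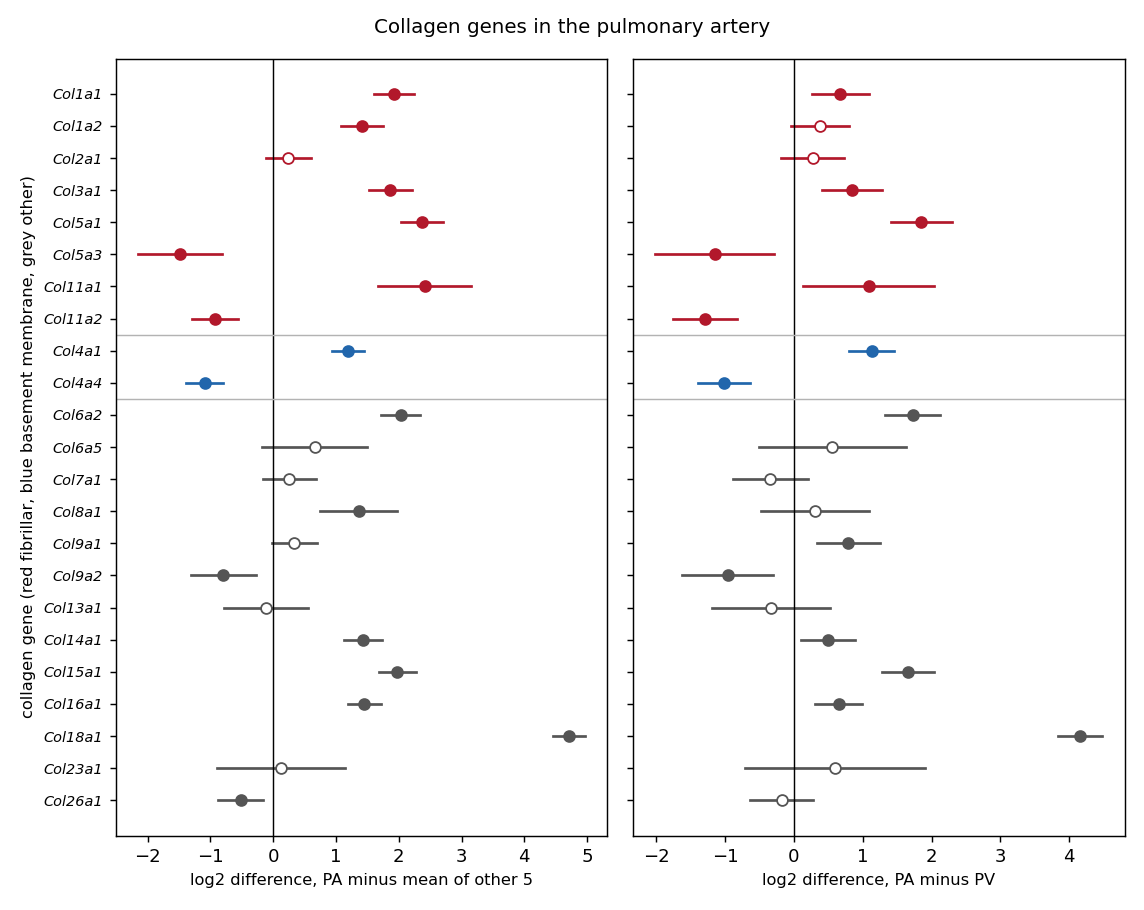
Difference in log2 normalized signal of each collagen gene for PA minus the mean over LA, LV, RV, SA and PV (left) and between PA and PV (right), with 95% confidence intervals from limma and filled circles for an adjusted p below 0.05. *Col18a1* lies at 4.71 and 4.15, and *Col5a3*, *Col11a2* and *Col4a4* lie below 0 in both panels.

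Most of the tested genes for modifying, crosslinking, binding and sensing collagen were also higher in PA, as were 2 of 4 cleavage genes. The breakdown list, which includes the metalloproteinase inhibitors *Timp2*, *Timp3* and *Timp4*, moved in both directions. Over all genes, 31.4% were higher in PA than in the mean of the other 5 regions and 27.7% were lower. Of 16 tested genes for procollagen modification and folding, all 16 were higher in PA, in the same contrast with the other regions, led by the lysyl hydroxylase *Plod2* (3.14, SE 0.09) and the prolyl 3-hydroxylases *P3h2* (3.06) and *P3h3* (2.42). All 4 tested lysyl oxidases, which crosslink fibrils, were higher, among them *Loxl1* (2.83), *Loxl3* (2.09) and *Loxl4* (1.11). Of 4 genes for procollagen cleavage, 2 were higher, the C-proteinase *Bmp1* (2.05) and its enhancer *Pcolce* (0.62). Collagen-binding matrix genes were higher in 11 of 13 and lower in 1, with *Comp* at 4.15, fibromodulin (*Fmod*) at 3.92 and *Prelp* at 3.70. Of the 12 genes on the breakdown list, inhibitors included, 7 were higher and 2 lower. The largest changes were in the collagen uptake receptor *Mrc2* (2.60), the gelatinase *Mmp2* (2.30) and the membrane collagenase *Mmp14* (2.16). Of 6 collagen receptors, 5 were higher, with *Itga10* at 2.47, *Ddr2* at 1.95 and *Itgb1* at 1.71.

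Markers of other cell types moved with PA as well, where 31.4% of all genes were higher and 27.7% lower. Of 8 smooth muscle markers, 7 were higher in PA and 1 lower, and their summed signal was 19.55 to 19.78 in PA against 15.95 to 17.34 elsewhere. All 7 tested cardiomyocyte markers were lower (summed signal 14.89 to 16.97 in PA, 20.52 to 21.20 elsewhere), as were 7 of 8 endothelial markers. Of 7 fibroblast markers, 3 were higher and 3 lower, and their summed signal was 17.38 to 17.73 in PA and 16.59 to 17.80 elsewhere. Of 7 adipocyte markers, 5 were higher and 2 lower, with a summed signal of 13.85 to 14.53 in PA and 13.91 to 15.08 elsewhere. Of 5 tested chondrocyte markers, 2 were higher and none lower (median 0.58), *Cnmd* (0.90), which was well above background on 2 of 4 PA arrays, and *Matn1* (0.58), and *Acan* was well above background on no array of any region. Schwann cell markers were lower in 5 of 7 and higher in 1. Mesothelial markers were higher in 1 of 6 and lower in 1, and lung epithelial markers higher in 1 of 8 and lower in 1. The part of these cell types in the collagen differences was not tested.

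Within the atrial side, the comparison of PV with LA asked how the vein differs from the atrial wall beside it. Of the 23 collagen genes, 14 passed, where 14.2% of genes did. Of these, 12 were higher in PV and 2 lower, where 7.31% of 15451 genes were higher and 6.89% lower, and the medians were 0.52 and −0.04. *Col1a1* was 3.05-fold higher in PV (difference 1.61, SE 0.20, adjusted p = 2.06e-05, limma), with no overlap between the groups. *Col8a1* was 3.22-fold higher (difference 1.69, SE 0.37, adjusted p = 0.0044, limma). *Col11a1* also passed (adjusted p = 0.0028, limma), but only 2 of 4 PV arrays and no LA array were well above background, so no fold is given. *Col3a1* (1.46), *Col1a2* (1.45), *Col16a1* (1.21), *Col14a1* (1.08), *Col7a1* (1.08), *Col5a1* (0.93), *Col4a1* (0.70), *Col6a2* (0.63) and *Col18a1* (0.52) were also higher. The calls of *Col6a2* and *Col18a1* held in 29 and 31 of 38 alternatives, and both were lost with array row as a block. Both that fell, *Col11a2* (−1.28) and *Col4a4* (−0.66), were chains with their highest mean in LA. When only the LA and PV arrays entered the fit, 9 genes passed, all of them among the 14, and *Col8a1* had an adjusted p of 0.0656.

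Smooth muscle markers were higher in PV than in LA for 7 of 8 genes (median 2.68) and Schwann cell markers for 6 of 7 (median 1.76). Mesothelial markers were lower for 6 of 6 (median −1.81). Over all genes, 7.31% were higher in PV than in LA and 6.89% lower. Of 7 fibroblast markers, 1 was higher and none lower, and 3 of 7 adipocyte markers were higher, led by *Ucp1* (4.88). The summed smooth muscle signal was 16.98 to 17.34 in PV and 15.95 to 16.25 in LA, and the part of these cell types in the collagen differences was not tested. Of 13 collagen-binding genes, 5 were higher in PV and none lower, among them *Postn* (2.64) and *Aspn* (1.68). Of 4 procollagen cleavage genes, the C-proteinase enhancer *Pcolce* was higher (1.1) and the proteinase *Tll1* lower (−0.56), and only 2 of 16 modification genes passed, *Fkbp10* (0.60) and *P4ha1* (0.56).

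PV also differed from SA, by 9 collagen genes, all higher in PV, where 3.76% of genes passed and 2.88% of 15445 genes were higher and 0.874% lower. The largest were *Col8a1* (1.85, SE 0.37, adjusted p = 0.0097, limma), *Col14a1* (0.96, SE 0.19, adjusted p = 0.0078, limma) and *Col16a1* (0.92, SE 0.16, adjusted p = 0.0041, limma). The other 6 were *Col18a1* (0.89), *Col15a1* (0.81), *Col5a1* (0.78), *Col3a1* (0.77), *Col1a2* (0.77) and *Col4a1* (0.61), and their calls held in 37, 34, 24, 16, 28 and 29 of 38 alternatives in that order. *Col1a1* was at 0.69 with an adjusted p of 0.058 (limma). This count rested on few arrays: it was 5 without PV1, 4 without PV3, 3 without PV4, 4 without SA1 and 5 without SA3. No collagen gene passed when only the PV and SA arrays entered the limma fit, although 12 had an unadjusted p below 0.05. Smooth muscle markers were higher in PV for 5 of 8 genes (median 0.86), Schwann cell markers for 5 of 7 (median 1.06) and fibroblast markers for 2 of 7 (median 0.72), and their part was not tested.

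The sinoatrial node region is known for its dense fibrous matrix. Compared with LA, 7 collagen genes passed, where 16.2% of genes did. Of these, 5 were higher in SA and 2 lower, where 7.43% of 15415 genes were higher and 8.76% lower. *Col1a1* was 1.89-fold higher in SA (difference 0.92, SE 0.20, adjusted p = 0.003, limma), with no overlap. *Col3a1* (0.70), *Col1a2* (0.69) and *Col7a1* (0.78) were higher too, and *Col11a1* passed with 1 of 4 SA arrays and no LA array well above background, so no fold is given. The calls of *Col3a1* and *Col1a2* held in 30 of 38 alternatives each and that of *Col7a1* in 20, and all 3 were lost with array row as a block, where 3 of 4 LA arrays but 1 of 4 SA arrays lay on the first row. *Col11a2* was 2.75-fold lower (difference −1.46, SE 0.22, adjusted p = 0.000183, limma) and *Col4a4* was 2.02-fold lower (difference −1.01, SE 0.18, adjusted p = 0.000779, limma). The count fell from 7 to 4 without LA3, without SA2, without SA4, with quantile normalization and with only the LA and SA arrays. Of 16 modification genes, 2 were lower in SA and none higher. Among 4 lysyl oxidases 1 was lower, *Loxl1* (−0.87), and none higher. Of 13 collagen-binding genes 2 were higher and 3 lower, and of 4 cleavage genes 1 was higher and 1 lower. The breakdown list had 1 of 12 higher and 2 lower, and 1 of 6 receptors was higher. Smooth muscle markers were higher in SA for 7 of 8 genes (median 1.88) and mesothelial markers lower for 6 of 6 (median −1.81). Fibroblast markers were lower for 4 of 7 and higher for 1 (median −0.56), with a summed signal of 16.59 to 17.18 in SA and 16.94 to 17.80 in LA. Of 7 adipocyte markers 1 was higher, *Ucp1* (6.74), and 2 of 7 Schwann cell markers were higher. The part of these cell types was not tested.

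Compared with V, the mean of LV and RV, 9 collagen genes passed in SA, where 29% of genes did. Of these, 6 were higher and 3 lower, where 12.7% of 15692 genes were higher and 16.3% lower. *Col11a2* was 2.48-fold higher (difference 1.31, SE 0.20, adjusted p = 4.16e-05, limma) and *Col1a1* 2.43-fold higher (difference 1.28, SE 0.17, adjusted p = 1.22e-05, limma). *Col13a1* (1.25), *Col1a2* (0.71) and *Col3a1* (0.67) were higher as well. *Col11a1* passed the test (adjusted p = 0.0013, limma), but no bound on its fold could be given because its SA level did not exceed the lowest measurable signal of the ventricular arrays. *Col4a1* (−1.12), *Col8a1* (−0.96) and *Col15a1* (−0.64) were lower. The call of *Col8a1* held in 31 of 38 alternatives and was lost with slide as a block. All 4 tested lysyl oxidases were lower in SA (median −0.64). Modification genes were higher for 3 of 16 and lower for 4, and collagen-binding genes higher for 3 of 13 and lower for 5. Cleavage genes were higher for 3 of 4 and receptors for 2 of 6. The breakdown list had 1 of 12 higher and 2 lower. Smooth muscle markers were higher for 6 of 8 genes (median 1.40) and endothelial markers lower for 6 of 8 (median −0.69). Adipocyte markers were higher for 5 of 7 and lower for 1 (median 1.76), with *Ucp1* at 7.90 and *Adipoq* at 4.82. Mesothelial markers were higher for 5 of 6 and lower for 1 (median 1.40), Schwann cell markers were higher for 4 of 7 (median 0.87), and fibroblast markers were higher for 2 of 7 and lower for 3 (median −0.40). Lung epithelial markers were lower for 2 of 8, with *Sftpc* at −2.37. The part of these cell types was not tested.

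LA and V differed by 6 collagen genes, 3 in each direction, or 27.3% of the 22 tested against 36.6% of 15633 genes (17.6% higher and 19.1% lower), a share below the background. *Col11a1* did not pass the filter on low values there. *Col11a2* was 6.82-fold higher in LA (difference 2.77, SE 0.20, adjusted p = 2.1e-09, limma), *Col13a1* 4.02-fold higher (difference 2.01, SE 0.36, adjusted p = 0.000203, limma) and *Col4a4* 1.53-fold higher (difference 0.61, SE 0.16, adjusted p = 0.0051, limma). *Col4a1* was 2.32-fold lower (difference −1.21, SE 0.14, adjusted p = 1.03e-06, limma), and *Col5a1* (−0.49) and *Col6a2* (−0.46) were also lower. The calls of the last 2 were lost in 16 and 10 of 38 alternatives. The second probe of *Col5a1* gave −0.48, but that of *Col6a2* gave only −0.15. The main fibril genes did not pass: *Col1a1* was at 0.36 (95% confidence interval −0.01 to 0.72), *Col1a2* at 0.03 (−0.35 to 0.40) and *Col3a1* at −0.03 (−0.42 to 0.36). Endothelial markers were lower in LA for 5 of 8 genes (median −0.70), smooth muscle markers lower for 5 of 8 (median −0.64) and mesothelial markers higher for 5 of 6 (median 3.33). Adipocyte markers were higher for 3 of 7 and lower for 1, with *Retn* at 3.27 and *Adipoq* at 3.04, and fibroblast markers higher for 2 of 7 and lower for 1. Schwann cell markers were higher for 2 of 7, *Mbp* (3.18) and *S100b* (1.40), and lower for 1, and lung epithelial markers were lower for 3 of 8, with *Sftpc* at −2.74. The part of these cell types was not tested.

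**Figure D5:**
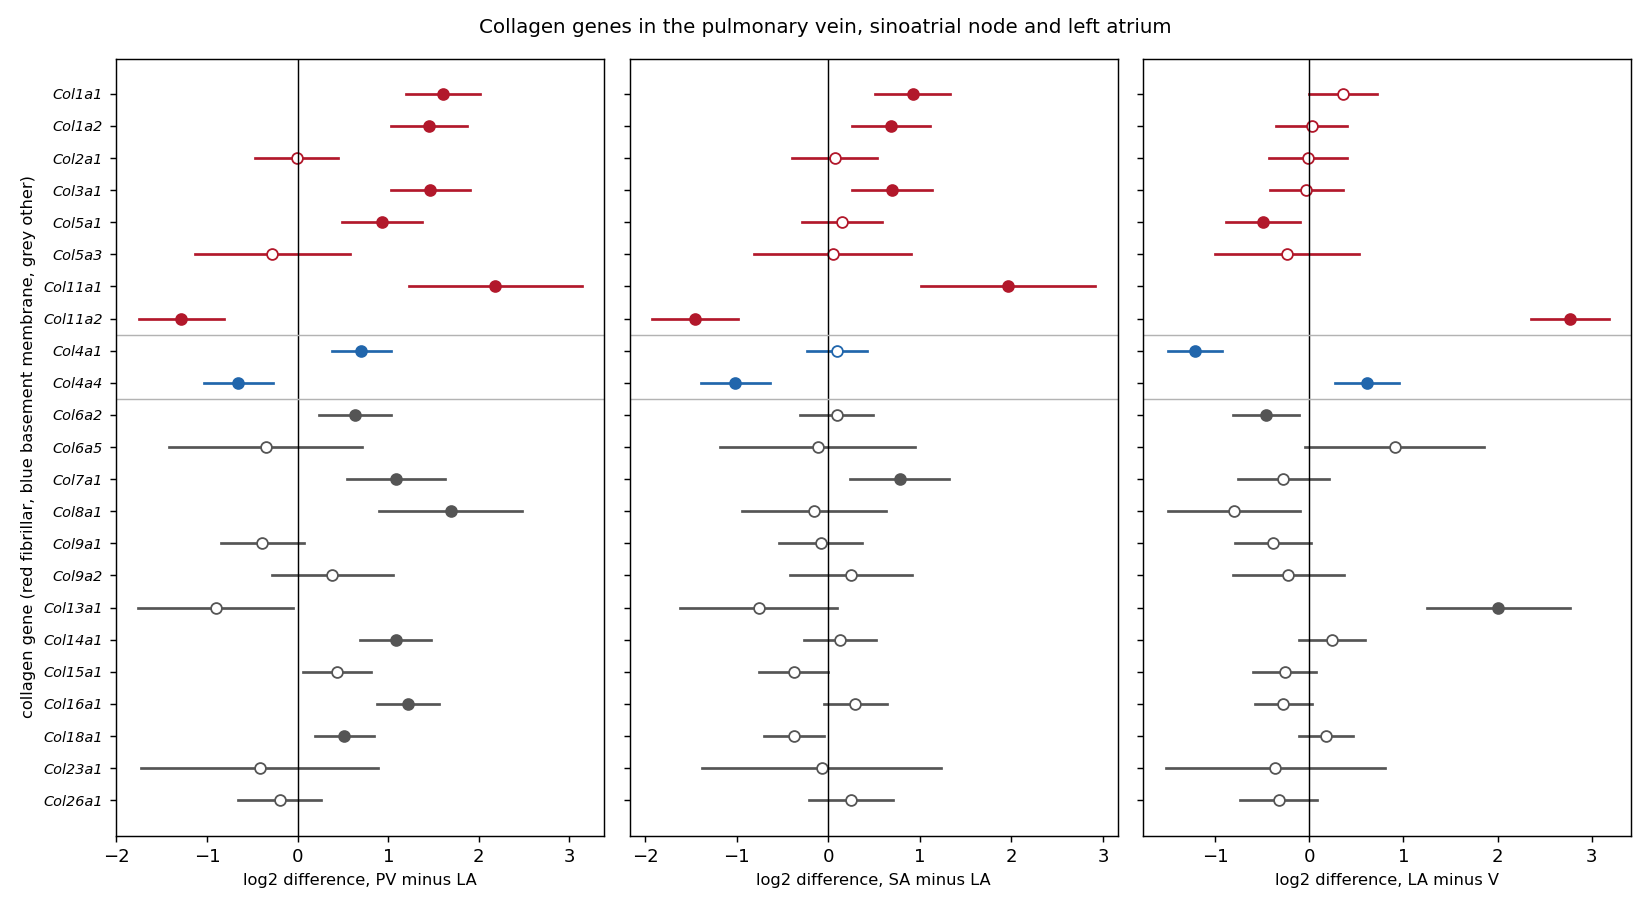
Difference in log2 normalized signal of each collagen gene for PV minus LA (left), SA minus LA (middle) and LA minus V (right), with 95% confidence intervals from limma and filled circles for an adjusted p below 0.05. *Col1a1*, *Col1a2* and *Col3a1* are filled in the left and middle panels and open in the right one, and the comparisons share the LA arrays.

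When LA, V and SA alone were tested together, the regions that the methods set against each other, 11 of the 23 collagen genes passed limma's F test (47.8%), against 40.5% of 15809 genes. They were 5 fibrillar chains, both basement membrane chains and 4 others. *Col11a2* (adjusted p = 6.51e-07), *Col4a1* (adjusted p = 2.84e-05) and *Col1a1* (adjusted p = 0.000937) had the smallest values in limma's test. The calls of *Col7a1* and *Col15a1* were the least steady, at 25 and 23 of 38 alternatives.

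LV and RV differed in none of 22 collagen genes in limma's contrast, where 0.622% of 15427 genes passed, 0.376% higher in LV and 0.246% lower. At an unadjusted p below 0.05 there were 5, *Col1a1* (−0.62, LV minus RV), *Col3a1* (−0.59), *Col4a4* (−0.51), *Col14a1* (−0.51) and *Col13a1* (1.09), and without array RV2 there were 2. RV2 stood apart for *Col23a1*, at 8.15 against 4.34 and 4.75 on the other RV arrays. Of the 22 differences, 16 were below 0, with a median of −0.20 against 0.000683 for all genes. Among the genes that act on collagen, *Fmod* (−0.87, adjusted p = 0.0142, limma) and *Ogn* (−0.48, adjusted p = 0.0146, limma) were lower in LV.

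Array row and slide were examined as batches because detection differed between rows. These splits use the same arrays that gave the calls, so agreement in direction was likely beforehand and is no separate support. PV2 and SA2 were the only PV and SA arrays on the first row, and LA2 the only LA array on the second. Every collagen gene called in a contrast kept its direction within each row, 17 of 17 for PA against the other 5, 14 of 14 for PV against LA, 7 of 7 for SA against LA and 15 of 15 for PA against PV. Within slides the same held except for *Col14a1* in PA against PV on slide 2, but slide 1 held no RV array and gave no value for PA against the other 5, LA against V or SA against V. With row as a block, 17 collagen genes passed for PA against the other 5, 12 for PV against LA, 10 for PV against SA and 5 for SA against LA, 4 of them among the 7.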

How the data were processed

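RNA from 23 rat tissue samples was hybridized to single-colour Agilent SurePrint arrays. Per the labels and methods, signals were read with Agilent Feature Extraction 11.0.1.1, background-subtracted, detrended and scaled by the authors to a common 90th percentile. The deposited table held these normalized intensity values for 45596 probes, and the deposited scanner files held the processed intensity of each spot. Probes with a missing value (156) were removed, 21047 of 45440 probes received a symbol through their accession in RefSeq (GRCr8), and the highest probe per gene and array was kept. Values were log2(intensity + 1), and genes had to exceed 4 on at least 1 array of a comparison. Region means were fitted with limma 3.58.1 (R 4.3.3) over all genes and 23 arrays, with Benjamini-Hochberg adjustment over all genes tested, and an adjusted p below 0.05 counted as a call. The number of arrays limits the precision. Groups came from the labels. The script was tested on simulated data. Per-array values were printed for the members with the smallest adjusted p of each class and the largest called change of each contrast, and for *Col5a3*, chosen after its values were seen. Other pathway genes were named for at most 3 per list and contrast. The members, classes and lists were chosen with earlier results of these data known. Alternatives were 16 other settings and leaving out each of the 23 arrays. The array design predates the RefSeq build, and no probe positions are given.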

Additional observations from a re-analysis of the deposited data

Results flagged for a closer look

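In each region of 4 arrays, the highest and the lowest array of every collagen gene was set against the nearest other array by Dixon's test. Of 115 such groups, 5 were past its 95% critical value, where chance gives about 1 in 20. *Col13a1* was at 7.78 in LA1 against 8.67 to 8.85 on the other LA arrays. *Col14a1* was at 9.19 in SA4 against 8.82 to 8.84. *Col23a1* was at 6.69 in SA1 against 3.95 to 4.34. *Col26a1* was at 5.76 in PV3 against 6.19 to 6.21. *Col4a4* was at 6.93 in PA3 against 6.30 to 6.35 on the other PA arrays.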

How the results depend on the processing

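The counts of collagen genes called for 6 regions (19), for LA, V and SA (11), PA against the other 5 (17), LA against V (6), SA against V (9) and PA against PV (15) stayed within 1.5 times under every alternative run. The count for SA against LA, 7, was 4 with quantile normalization and 4 with only the arrays compared. That for PV against LA, 14, was 9 with only the arrays compared. That for PV against SA, 9, was 5 with scanner signals scaled to the 75th percentile and 0 with only the arrays compared. Leaving out 1 array gave 18 to 19, 8 to 12, 17 to 18, 4 to 7, 8 to 10 and 12 to 15 for the first 6 counts in that order, 4 to 7 for SA against LA, 11 to 14 for PV against LA, 3 to 10 for PV against SA and 0 to 0 for LV against RV. With only the arrays compared, *Col14a1* and *Col16a1* in PV against SA had adjusted p of 0.076 and 0.0526 in limma, and *Col8a1* 0.0826, or 0.0502 without PV4 in the fit of all regions. No called difference of a collagen gene changed sign under any alternative, while differences near 0 that missed the threshold did, among them *Col1a2* in 3 and *Col3a1* in 5 of 38 alternatives for LA against V. Normexp background correction moved the median difference of all genes from −0.08 to −0.19 for LA against V, from −0.01 to 0.17 for SA against LA and from −0.04 to 0.09 for PV against LA, and the collagen differences stand against that shift. The cause of these changes was not tested.

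Replicate numbers showed no clear pairing of the samples. Over 55 pairs of arrays with the same number, the correlation of deviations from the region means ran from −0.376 to 0.336. It exceeded 0.1 in 12 pairs, and 6 of 23 arrays correlated best with their own number. Arrays with the same number often lay on different rows or slides and SA samples were pooled, so this cannot show that samples were unpaired. With the replicate number as a block, 19 genes were called for 6 regions, 8 for LA, V and SA, 17 for PA against the other 5, 14 for PV against LA, 6 for PV against SA, 7 for SA against LA and 0 for LV against RV. Background limits the dim genes: *Col11a1* in PA has a bound only against LA, LV and RV, where no array was well above background, and other differences of *Col11a1*, *Col7a1* and *Col9a1* include arrays below background.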
